A study of Bos taurus with 18 samples.

Results

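The genes *TAP* (ENSBTAG00000048171), *LAP* (ENSBTAG00000027225) and *LPO* (ENSBTAG00000012780) encode secreted antimicrobial proteins of bovine mucosa, and their levels were compared in rumen papillae of dairy cows on 3 forage diets. They were taken by identifier, as 3 of the 24616 genes of the deposited table, and all 3 passed the filter on low values. The study had itself named *TAP* and *LAP* as differing between AH and RS, and *LPO* between AH and CS, in these same cows. Their ranks and p-values here are therefore not independent evidence. RNA came from 18 lactating multiparous Holstein cows, 6 on each diet, slaughtered at the end of one feeding trial. The AH diet held alfalfa hay with some Chinese wild rye hay, the CS diet corn stover and the RS diet rice straw, each beside the same concentrate mixture and corn silage. The cows were intact production animals without a further treatment, and 1 library was made per cow. As the study describes the diets, AH vs. CS addresses forage quality at small particle size, and RS vs. CS addresses particle size at low quality. The share of the longest particles was nevertheless higher in AH than in CS, so quality and particle size are not fully separated there. In AH vs. RS quality and particle size both differed, since RS was of lower quality and larger particles, and their parts cannot be told apart.

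*TAP*, the tracheal antimicrobial peptide, and *LAP*, the lingual antimicrobial peptide, are beta-defensins, small cationic peptides that damage microbial membranes. They are made by stratified and airway epithelia of cattle and are known to be induced by bacterial products through NF-kappaB. *LPO*, lactoperoxidase, works differently: it uses hydrogen peroxide to oxidise thiocyanate to hypothiocyanite, which inhibits bacteria, and it is best known from milk, saliva and airway secretions. In epithelia the hydrogen peroxide is supplied by dual oxidases, which need maturation factors, such as the one encoded by *DUOXA2*, to reach the cell surface. In RefSeq on the assembly ARS-UCD2.0, *TAP* and *LAP* lie on the same chromosome with 10 protein-coding genes between them, a neighbour of *TAP* is a *DEFB103* gene of the same family, and *LPO* lies beside the myeloperoxidase gene *MPO*.

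Levels are CPM, the reads of a gene in a cow for each 1000000 reads that fell on annotated genes. Each cow had 16099131 to 32252177 reads on genes, recovered from the whole-number steps of the CPM. The median was 20621803 reads in AH, 19610798.5 in CS and 24913740.5 in RS. Reads with several mapping hits had been removed before counting, and *TAP* and *LAP* are close paralogs, so the levels of both are uncertain. Of the 21 squamous and 13 rectal epithelium markers listed for a check of the tissue, 0 could be paired with an identifier of the table. A gene was called DE when its adjusted p from limma was under 0.05 and its mean CPM differed more than 2-fold. In these bulk samples, fewer cells of a type and less RNA per cell cannot be told apart.

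*TAP* was at its lowest in AH cows. In AH its CPM ran from 1.51 to 102 with a median of 29.7, in CS from 95.9 to 770.2 with a median of 194, and in RS from 139.8 to 612 with a median of 329. Each RS cow exceeded all 6 AH cows, and 5 of 6 AH cows were under the lowest CS cow. Over all genes, every cow on AH was lower than every cow on CS for 0.0376% and than every cow on RS for 0.0678%, which is 9 genes. The exception was AH cow 1, at 102 CPM, which exceeded CS cow 3 (97.0 CPM) and CS cow 6 (95.9 CPM). The fourth and the sixth AH cow were far below the others of their diet, at 1.51 and 4.25 CPM, which are 33 and 87 reads. Mean CPM (± SD, n = 6) was 38.6 ± 39.8 on AH, 333 ± 297 on CS and 326 ± 164 on RS, so the CS mean was 8.61-fold and the RS mean 8.43-fold that of AH. Mean CPM was over 2-fold lower on AH for 0.73% of genes against CS and for 0.873% against RS.

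**Figure D1:**
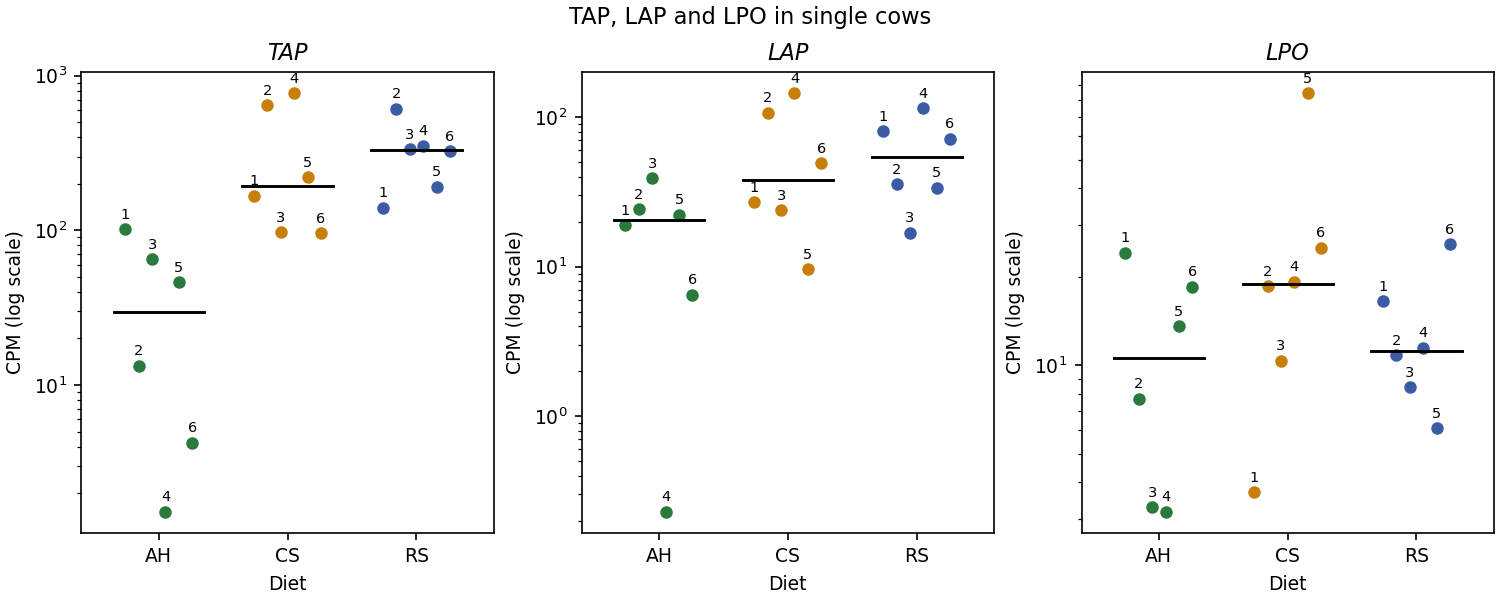
CPM of *TAP*, *LAP* and *LPO* on a log axis in each cow of the AH, CS and RS diets. Points are cows, with the replicate number above each, and black lines are medians. For *TAP*, 6 of 6 AH cows sit below every RS cow. The fourth AH cow is the lowest of 18 in each of the 3 genes, and the fifth CS cow is the highest for *LPO*.

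The difference in *TAP* was tested on log2(CPM + 0.5) across all 13284 genes that passed the filter. The fitted difference of AH vs. CS was -3.67 (95% interval -5.31 to -2.02), and that of AH vs. RS was -3.98 (95% interval -5.62 to -2.34), on a scale that understates changes of low values. The adjusted p from limma was 0.507 against CS and 0.271 against RS, so *TAP* was not called DE with either diet. DE genes made up 0.00753% of the genes tested in each of these comparisons, which is the single gene *S100A9*. Ranked by the fitted difference, *TAP* was the lowest of the 13284 genes in both comparisons. Ranked by the log2 ratio of mean CPM it was the third lowest against CS and the seventh against RS, and ranked by unadjusted p it was the fourth against CS and the third against RS. The two-sided exact permutation test over cows gave p = 0.0065 against CS and p = 0.0022 against RS, the latter being the smallest p that 6 against 6 cows allow. Over all genes, the exact p was under 0.05 for 1.9% against CS and for 2.26% against RS. These comparisons share the 6 AH cows.

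*LAP* had the same order of mean levels but more overlap between the diets. Its CPM ran from 0.229 to 39.2 in AH (median 20.6), from 9.64 to 145 in CS (median 38.1) and from 16.9 to 115 in RS (median 53.8). Only the fourth and the sixth AH cow, at 0.229 and 6.49 CPM, lay below every CS and RS cow, and 3 CS and 3 RS cows lay above every AH cow. The lowest value rested on 5 reads, and its exact Poisson 95% interval, which covers counting error only, was 0.0745 to 0.535 CPM. Mean CPM (± SD, n = 6) was 18.6 ± 13.8 on AH, 60.2 ± 53.7 on CS and 58.9 ± 36.6 on RS. The log2 ratio of mean CPM was -1.70 (SE 0.68) for AH over CS and -1.67 (SE 0.57) for AH over RS.

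On the log2 scale, the fitted difference of *LAP* was -1.87 in AH vs. CS (95% interval -3.54 to -0.20) and -2.11 in AH vs. RS (95% interval -3.78 to -0.45). The adjusted p from limma was 1.00 in both, and the exact permutation p was 0.0866 and 0.0303. Without the fourth AH cow the fitted differences of *LAP* were -1.08 and -1.32, while those of *TAP* were -3.03 and -3.34. A single-dispersion exact test of edgeR on the recovered reads called *TAP* and *LAP* in both comparisons, with an adjusted p for *LAP* of 1.4e-05 and 0.00025. Of the 13284 genes, it called 126 DE against CS and 116 against RS. It gives all genes the same dispersion. The within-diet SD on the log2 scale was 1.57 for *TAP* and 1.58 for *LAP*, against a median of 0.49 over all genes. Its p-values can therefore be too low for these genes.

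*LPO* overlapped between all diets. Its CPM ran from 3.17 to 24.1 in AH (median 10.6), from 3.69 to 84.2 in CS (median 18.9) and from 6.09 to 25.8 in RS (median 11.1). CS cow 5 stood alone at 84.2 CPM, and the next highest of the 18 cows was RS cow 6 at 25.8 CPM. Mean CPM (± SD, n = 6) was 11.7 ± 8.52 on AH, 26.8 ± 29.1 on CS and 13.2 ± 7.09 on RS. The fitted log2 difference of *LPO* was -0.94 in AH vs. CS (95% interval -2.17 to 0.29) and -0.38 in AH vs. RS (95% interval -1.60 to 0.85). Both intervals included 0, and neither difference passed a test (adjusted p = 1.00 from limma in both, exact permutation p = 0.238 and 0.511). Without CS cow 5 the fitted difference in AH vs. CS was -0.50.

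When AH was compared with the mean of CS and RS, all 18 cows entered the contrast. The fitted log2 difference was -3.82 for *TAP* (95% interval -5.25 to -2.40), -1.99 for *LAP* (-3.44 to -0.55) and -0.66 for *LPO* (-1.72 to 0.41). The adjusted p from limma was 0.0773 for *TAP* and 1.00 for *LAP* and *LPO*, and the exact permutation p was 0.00016, 0.0133 and 0.264. In this contrast 0.0151% of the genes were DE, which were *S100A9* and *PRSS53*, and 2.51% had an exact p under 0.05. The call for *TAP* turned on single cows and on the test. Without AH cow 1 its adjusted p was 0.0159, without AH cow 3 it was 0.0422, and DESeq2 on the recovered reads gave 0.0075. The adjusted p of *TAP* in the other alternatives, described in the closing section, reached 0.435 with edgeR's quasi-likelihood test.

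Between RS and CS, the 2 diets of low quality and different particle size, the fitted log2 difference was 0.31 for *TAP* (95% interval -1.33 to 1.96), 0.25 for *LAP* (-1.42 to 1.91) and -0.56 for *LPO* (-1.79 to 0.66). The log2 ratio of mean CPM was -0.030 for each defensin gene, so the sign of their difference depended on the scale. The exact permutation p was 0.610 for *TAP*, 0.734 for *LAP* and 0.418 for *LPO*, and the adjusted p from limma was 1.00 for each. The intervals leave room for differences of more than 2-fold in either direction for *TAP* and *LAP*, so these cows do not show that the 2 diets gave the same level. Of all genes, 0% were DE in RS vs. CS with limma, 1.29%, or 171 genes, had an unadjusted p under 0.05 and 1.81% an exact p under 0.05, and DESeq2 and edgeR's quasi-likelihood test also called 0. For *LPO*, leaving out CS cow 5 brought the difference in RS vs. CS to -0.12.

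**Figure D2:**
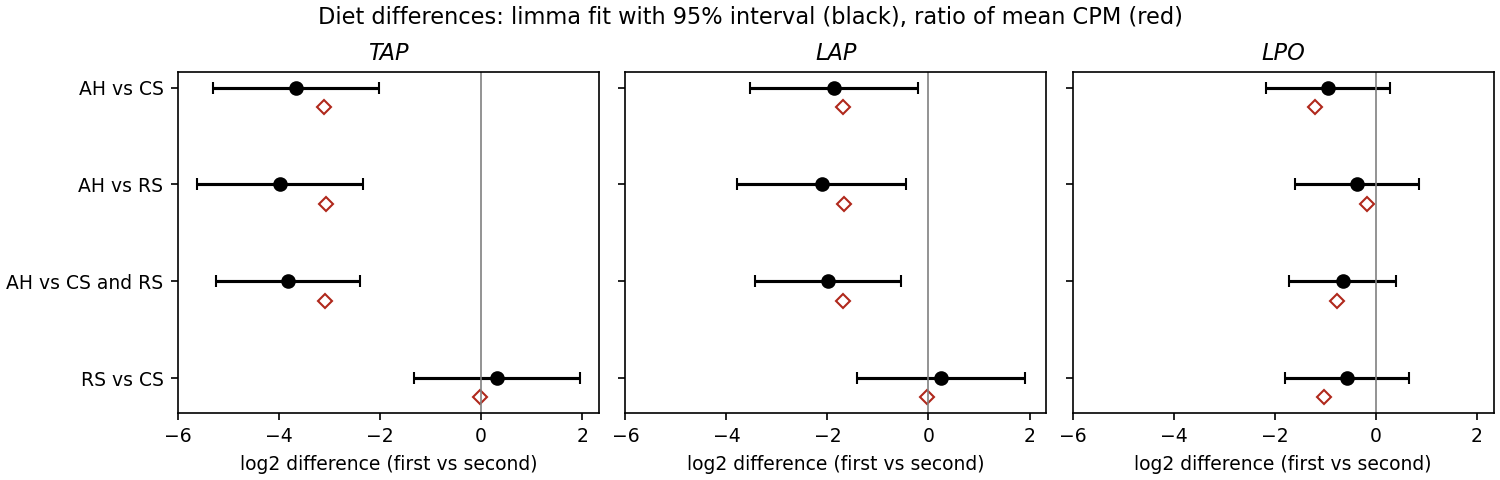
Differences between diets for *TAP*, *LAP* and *LPO* on the log2 axis, the first diet against the second. Black points are limma fits on log2(CPM + 0.5) with 95% intervals, and red diamonds are log2 ratios of mean CPM. The intervals of *TAP* and *LAP* in the comparisons of AH lie below 0 before adjustment over genes, and all those of *LPO* and of RS vs. CS cross 0.

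The members were among the most variable genes of the tissue. The SD between cows of the same diet was 1.57 on the log2 scale for *TAP*, 1.58 for *LAP* and 1.14 for *LPO*, against a median of 0.49 over the 13284 genes. That of *LAP* includes the fourth AH cow, whose level rested on 5 reads, and was not computed without it. A larger SD was found for 0.557% of genes in the case of *TAP*, 0.527% for *LAP* and 2.47% for *LPO*. Differences between diet means made up 61.5% of the variance of *TAP* among the 18 cows. This was the ninth highest share of the 13284 genes, whose median share was 4.60%. The share was 29.9% for *LAP* and 12.1% for *LPO*. These shares are not corrected for the number of diets, so part of each arises without any effect of diet. For comparison, *S100A9*, which was DE, had a within-diet SD of 0.51, and differences between diet means made up 80.7% of its variance.

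**Figure D3:**
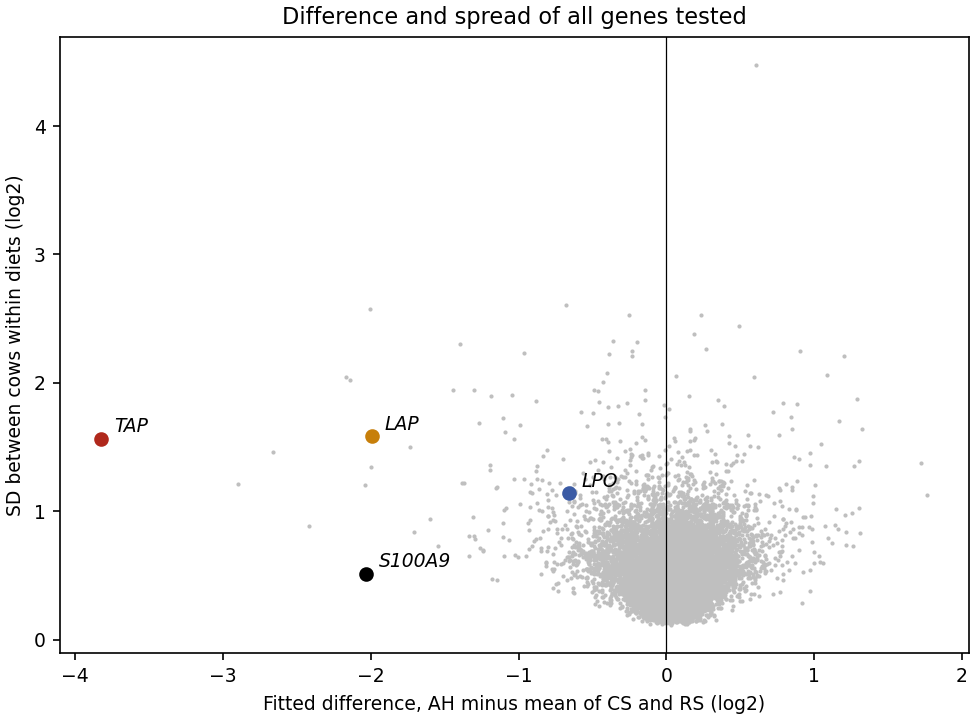
Fitted log2 difference of AH minus the mean of CS and RS (horizontal) and SD between cows within diets on the log2 scale (vertical) for the 13284 genes tested, each a grey point, with *TAP*, *LAP*, *LPO* and *S100A9* marked. *TAP* has the lowest difference of all (-3.82) at an SD of 1.57, while *S100A9* has a difference of -2.03 at an SD of 0.51.

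The 3 genes were then compared with each other among cows, with diet means removed so that the diets could not give the relation. Log2 levels of *TAP* and *LAP* had a Pearson r of 0.69 over 18 cows (permutation within diets, p = 0.0072) and a Spearman rho of 0.68 (permutation p = 0.0066). Adjusted over the 15 relations computed, these p-values were 0.0539 and 0.0702. Within single diets r was 0.84 in AH (exact permutation p = 0.0208, adjusted 0.104), 0.66 in CS (exact p = 0.167) and -0.21 in RS (exact p = 0.683), 6 cows each. In AH rho was 0.60 (exact permutation p = 0.242), and without the 2 cows farthest from the median of *TAP* r was -0.04, so the relation in AH rested on those cows. With diets pooled, r was 0.79 (permutation p = 0.00022, adjusted 0.0033) and rho was 0.60 (permutation p = 0.0094, adjusted 0.0702). The relation rested in part on the fourth AH cow, since without it r with diet means removed was 0.48 (permutation p = 0.0669). Without the 2 cows farthest from the median of *TAP*, r was 0.52. For *LPO* no relation with a defensin gene passed the test. With diet means removed, r was 0.21 for *TAP* and *LPO* (permutation p = 0.460) and 0.13 for *LAP* and *LPO* (permutation p = 0.648). The corresponding rho was 0.19 (permutation p = 0.509) and 0.13 (permutation p = 0.651). Without the 2 cows farthest from the median of the first gene, these r were -0.12 and 0.21.

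The ratio of *TAP* to *LAP* CPM, examined after the values had been seen, compares cows and not the levels of the 2 genes, since CPM are not scaled by length. It had a median of 1.86 in AH (0.550 to 6.60), 5.68 in CS (1.95 to 22.8) and 5.09 in RS (1.74 to 19.8). The highest AH ratio, that of the fourth cow, rested on 33 reads of *TAP* and 5 of *LAP*, and the ratio was not tested without that cow. The highest AH ratio, that of the fourth cow, rested on 33 reads of *TAP* and 5 of *LAP*, and the ratio was not tested without that cow. The lowest 2 of the 18 cows, the second and the sixth on AH, had ratios of 0.550 and 0.654, and the ranges of the 3 diets overlapped. On the log2 scale the ratio differed by -1.61 (SE 0.77) for AH against CS and by -1.67 (SE 0.83) for AH against RS, with exact permutation p-values of 0.0801 and 0.0736. Against CS and RS together the difference was -1.64 (SE 0.70, exact permutation p = 0.0248), with no adjustment over the 4 comparisons made.

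Symbols could be paired with identifiers for 73 genes, all from a list the study chose on these samples, so few other genes of the defence pathways could be described and their direction is not independent evidence. Of the 16 listed genes of the lactoperoxidase system, *LPO* and *DUOXA2* were paired. *DUOXA2* ran from 8.41 to 52.1 CPM in AH (median 24.4), from 20.6 to 143 in CS (median 45.0) and from 19.2 to 56.1 in RS (median 46.0). The diets overlapped, the fitted log2 difference was -1.13 against CS and -0.74 against RS, and the adjusted p from limma was 1.00 in both (exact permutation p = 0.0736 and 0.182). Among cows, r of *LPO* and *DUOXA2* was 0.65 over 18 cows and 0.60 with diet means removed, but within diets it was 0.97 in AH, 0.53 in CS and -0.17 in RS.

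Of the 45 other antimicrobial genes listed, 3 could be paired, *S100A8* and *S100A9*, whose products form the zinc- and manganese-binding calprotectin, and *PI3*, whose product inhibits elastase. *S100A9* was DE in both comparisons of AH and was lower there, with 161 to 575 CPM in AH (median 464), 1249 to 2420 in CS (median 1467) and 1131 to 2167 in RS (median 1993), and its adjusted p from limma was 0.0062 and 0.0040. *S100A8* had a median of 2868 CPM on AH, 6138 on CS and 7470 on RS, and *PI3* one of 47.8, 288 and 403. Both had an adjusted p over 0.05 from limma in AH vs. RS (0.310 and 0.556), and no AH cow reached the lowest RS cow. Over all genes, every AH cow was below every RS cow for 0.0678%. For *PI3* the gap was narrow, from 135.4 CPM in AH cow 5 to 136.6 CPM in RS cow 5. With the 3 members and *DUOXA2*, 1 of 7 genes, *S100A9*, was DE against CS and against RS, beside 0.00753% of all genes tested in each. The 7 genes are all in the list the study chose on these samples, so these shares cannot be weighed against each other.

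**Figure D4:**
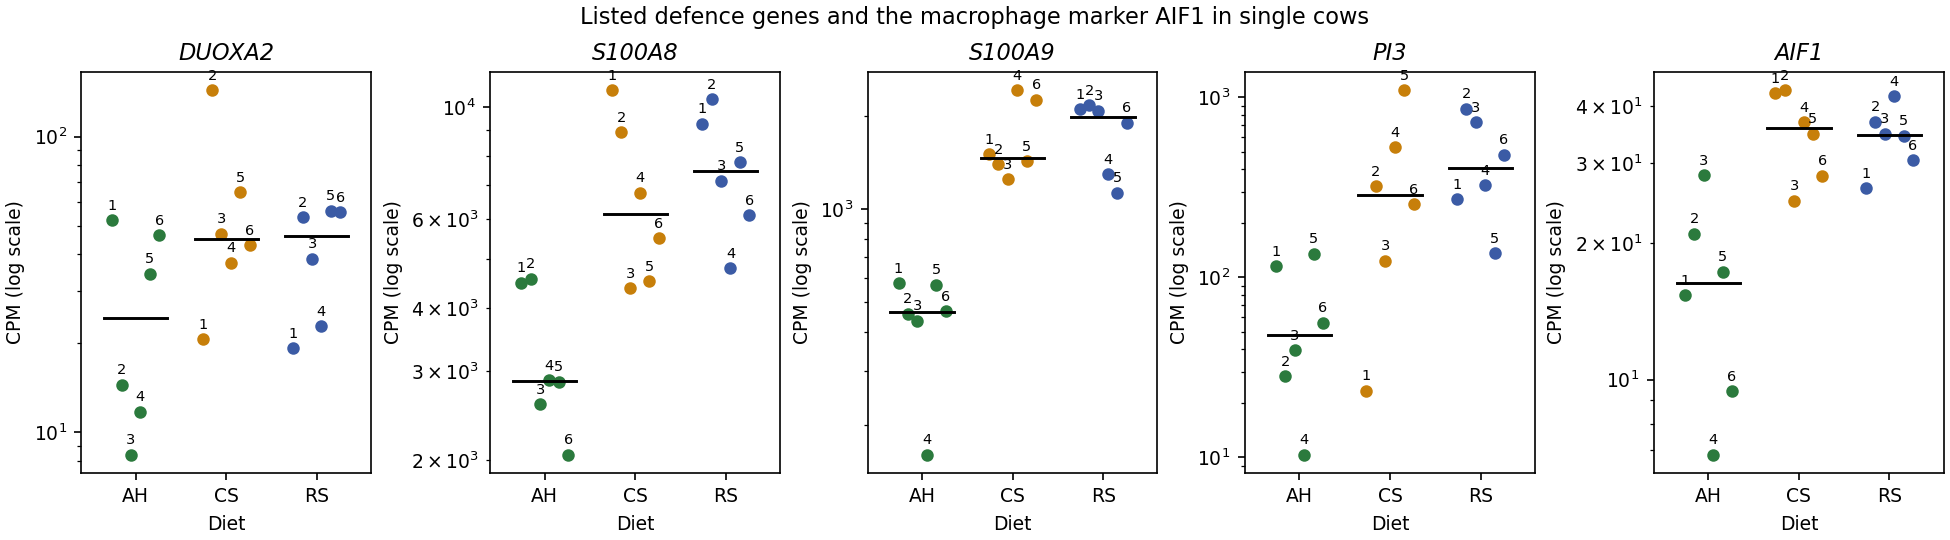
CPM on a log axis of *DUOXA2*, *S100A8*, *S100A9*, *PI3* and the macrophage marker *AIF1* in each cow by diet. Points are cows with their replicate number, and black lines are medians. For *S100A8*, *S100A9* and *PI3*, 6 of 6 AH cows lie below every RS cow, which holds for 0.0678% of all genes, and for *DUOXA2* the diets overlap.

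Of the 13283 other genes tested, the one whose log2 level was most like that of *TAP* over the 18 cows was *AIF1* (ENSBTAG00000020554), a gene of macrophages. Their r was 0.91 (Spearman rho 0.86), and 0.76 with diet means removed, the fifth highest of all genes. Within AH, CS and RS it was 0.79, 0.70 and 0.66, and without the fourth AH cow *AIF1* was again the most alike, with r = 0.85. These are descriptions of genes counted in the same libraries, chosen as the highest of many. *AIF1* was the 1 paired gene of the 10 macrophage markers listed, and 0 of 16 neutrophil and 0 of 10 lymphocyte markers could be paired. It ran from 6.84 to 28.2 CPM in AH (median 16.3), from 24.8 to 43.4 in CS (median 35.8) and from 26.4 to 42.1 in RS (median 34.7). Mean *AIF1* was thus lower on AH, as were those of *TAP* and *LAP*, with an exact permutation p for *AIF1* of 0.0065 against CS and 0.0043 against RS (adjusted p = 0.580 and 0.399 from limma), and its part in their difference was not tested.

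**Figure D5:**
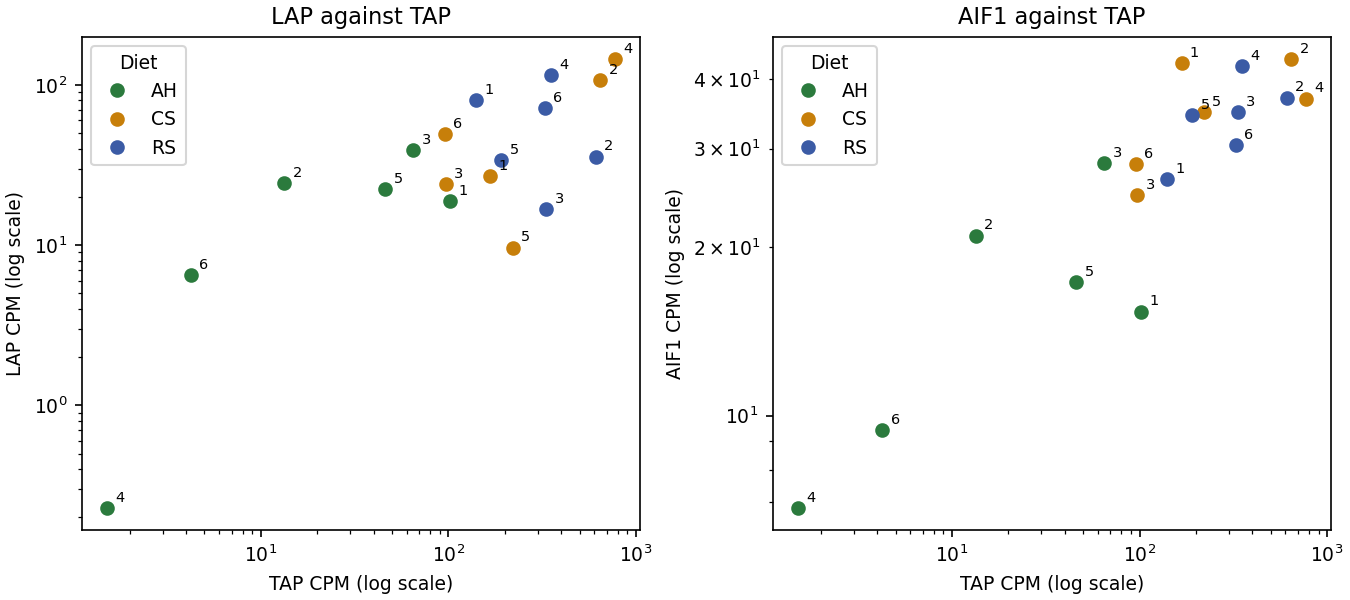
*LAP* against *TAP* (left) and *AIF1* against *TAP* (right), CPM on log axes, with each cow a point coloured by diet and labelled by its replicate number. Over 18 cows r on the log2 scale is 0.79 for *LAP* and 0.91 for *AIF1*, and the fourth AH cow lies at the lower end of both plots.

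After *AIF1*, the genes most like *TAP* were *S100A9* (r = 0.86, or 0.57 with diet means removed) and 3 genes without a paired symbol, with r between 0.79 and 0.81. For *LAP* the 5 most alike genes were ENSBTAG00000019708 (r = 0.80), *TAP* (0.79), *AIF1* (0.78), the immunoglobulin light chain-like gene *IGLL1* (0.75) and the complement factor B gene *CFB* (0.74). Without the fourth AH cow, ENSBTAG00000019708 stayed first in the order for *LAP* (r = 0.72) and *TAP* was the 12th gene (0.63). *CFB* was then the 30th (0.60), *AIF1* the 32nd (0.59) and *IGLL1* the 75th (0.53), so their likeness to *LAP* rested in part on that cow. Within AH, CS and RS, r of *LAP* and *AIF1* was 0.92, 0.30 and -0.07. ENSBTAG00000019708 was also the third for *TAP* (r = 0.81). The 5 genes most like *LPO* had r between 0.82 and 0.86, and 0 of them had a paired symbol, among them ENSBTAG00000016155 (r = 0.86). Its closest genes with a symbol were *PI3* (r = 0.69, or 0.80 with diet means removed) and *PRSS53*, a serine protease gene (0.68, or 0.82). CS cow 5, the highest for *LPO*, was also the highest for *PI3*, at 1093 CPM, whereas its *LAP* level of 9.64 CPM was the lowest of the CS cows.

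The fourth AH cow was the lowest of the 18 for 6 of the 8 genes described, namely the 3 members, *S100A9*, *PI3* and *AIF1*. Some of these genes varied together, so they are not separate observations. How often this cow was the lowest over all genes was not counted. Its library held 21794912 reads on genes, within the range of its diet.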

How the data were processed

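The authors aligned paired-end reads of 18 rumen papilla libraries to the bovine genome UMD 3.1 with TopHat2, dropped multi-mapped reads and those with over 2 mismatches, assigned the rest to Ensembl genes by HTSeq and deposited CPM, scaled to reads on all annotated genes. Tool versions are not given in the sources used here. The labels give rumen epithelium as the tissue, although their extraction text also speaks of rectal tissue and of a kit other than that of the paper. No batch, lane or date is given. The CPM were whole multiples of 1 read (tolerance 0.02) for all values but 1.

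The filter on low values kept a gene if 3 or more of the 6 cows on any diet exceeded 1 CPM. Values entered limma 3.58.1 (R 4.3.3) as log2(CPM + 0.5), using diet as the factor, an intensity trend and Benjamini-Hochberg adjustment over all genes. Standard errors of log2 ratios of mean CPM reflect the variation among cows. For single genes, exact permutation (two-sided) was applied to mean log2(CPM + 0.5). Correlations were tested with 100000 permutations, or exactly at 6 cows. edgeR 4.0.16 and DESeq2 1.42.0 were run on the recovered reads. The tests were also run on simulated counts with the same dispersion for every gene. Those counts cannot show how the tests behave for genes as variable as *TAP* and *LAP*. Other steps used scipy 1.17.1 in Python 3.11.15, with pandas 2.3.3, matplotlib 3.10.9 and numpy 2.4.6.

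The genes, lists and tests were chosen with earlier results of these data known. Genes named are the 3 members, the paired genes of the lists and the 5 genes most like each member by Pearson r over 18 cows. *PRSS53* and the symbol-bearing genes most like *LPO* were named after their values had been seen. Symbols came from the study's supplementary list, which pairs 73 identifiers. Of the 221 symbols listed here, 8 were paired. A count of 0 allows up to 3 reads, and PCR copies are not independent molecules.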

Additional observations from a re-analysis of the deposited data

Results flagged for a closer look

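Within the 6 cows of a diet, a value was singled out when its gap to the nearest cow as a share of the range exceeded Dixon's critical value. The rule was applied to CPM and ratios without a log. About 1 in 20 groups of normally distributed values exceed it, but unlogged CPM need not be normal, so that rate is no yardstick here. Of 27 groups, 4 held such a value. *LPO* in CS cow 5 was 84.2 CPM, against 25.1 CPM in the next highest CS cow. In the same cow the ratio of *TAP* to *LAP* CPM was 22.8, against 6.20 in the next. *DUOXA2* in CS cow 2 was 143 CPM, against 64.9 CPM in the next. *S100A9* in AH cow 4 was 161 CPM, against 436 CPM in the next lowest AH cow.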

How the results depend on the processing

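In the comparisons of AH, the fitted differences of *TAP*, *LAP* and *LPO* kept their sign under the 12 alternatives and without each cow in turn. The log2 ratio of mean CPM of *LPO* in AH vs. RS, -0.17 with all cows, did not. It was 0.14 without RS cow 6, 0.025 without AH cow 3 and 0.027 without AH cow 4. Against CS and RS singly, only the common-dispersion exact test of edgeR called *TAP* (-3.27 and -3.14, adjusted p = 2.9e-16 and 1.2e-14, with adjusted p of *TAP* in the other 11 alternatives between 0.0833 and 1.00 and between 0.0880 and 0.605, and without single cows between 0.129 and 1.00 and between 0.0532, without AH cow 1, and 0.809) and *LAP* (-1.89 and -1.67, adjusted p = 1.4e-05 and 0.00025). The exact test gives all genes the same dispersion, so its p-values can be too low for genes as variable as these. Against CS and RS together that test gave -3.21 for *TAP* and -1.78 for *LAP*, and DESeq2 gave -3.21 for *TAP* (adjusted p = 0.0075). Without single cows *TAP* lay between -4.31 and -3.18 there. In RS vs. CS the sign turned with edgeR's quasi-likelihood test, DESeq2 and the exact test, to -0.13, -0.16 and -0.13 for *TAP* and to -0.22, -0.25 and -0.22 for *LAP*, and on mean CPM to -0.0302 for *TAP* and -0.0303 for *LAP*. *LAP* lay there between -0.16 and 0.60 without single cows. The number of DE genes in AH vs. CS, main value 1, was 0 with only the cows compared (214 at an unadjusted p under 0.05), 5 with DESeq2 and 126 with the exact test, and 1 to 2 without single cows. In AH vs. RS it was 2 with the replicate block, 8 with DESeq2 and 116 with the exact test (1 to 5 without single cows, the highest without RS cow 6). In RS vs. CS, main value 0, it was 1 without the filter and 97 with the exact test (0 to 6, the highest without RS cow 6). Against CS and RS together, main value 2, it was 1 without the filter, without the trend and with the quasi-likelihood test, 15 with DESeq2 and 129 with the exact test (1 to 3). Without single cows, r of *TAP* and *LAP* lay between 0.48 and 0.73 and r of *LAP* and *LPO* between -0.17 and 0.43. The cause of these changes was not tested. For its diet, fermentation, papilla width and PCR data the paper names a randomized complete block design. Replicate numbers are not stated to pair cows or to be these blocks. The exact permutation tests of diets relabelled cows without regard to blocks. Deviations of same-numbered cows correlated over 0.1 in 12 of 18 pairs, from -0.48 to 0.71. The replicate block moved the call of no member (adjusted p of *TAP* = 0.881 against CS and 0.370 against RS). Of 18 cows, 5 correlated best with a cow of their own number. The 5 reads of *LAP* in AH cow 4 limit how far below the other cows it can be placed.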
